A study of Mus musculus with 2 samples.

Results

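Transcripts of 7 ion pump genes were followed in total RNA from mouse left cerebral cortex: the sodium-potassium pump beta subunit genes Atp1b1, Atp1b2 and Atp1b3, and the plasma membrane calcium pump genes Atp2b1, Atp2b2, Atp2b3 and Atp2b4. They were taken by gene symbol from 55536 gene rows, and all 7 were found, with 42 transcript rows between them. The tissue came from 2 male mice of the strain B6CASTF1/J, an F1 hybrid between C57BL/6J and CAST/EiJ, at an age of 2 months. Both animals belonged to 1 group without treatment, with 1 library each made from 300 ng of RNA with added ERCC spike-in RNAs, and they are called replicate 1 and replicate 2 as in the labels. The labels number the males apart but give 1 donor record for both, read here as a record of the strain. No second condition was studied, so the levels are descriptions, and the spread given is the SD over both animals. Expected counts over gene rows were 32866391 in replicate 1 and 32032103 in replicate 2.

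The sodium-potassium pump exports sodium and imports potassium at the cost of ATP, and it restores the gradients on which neuronal firing and glial transport depend. It is made of a catalytic alpha subunit and a glycosylated beta subunit, which is needed for folding and for delivery to the cell surface. Plasma membrane calcium pumps are single-chain ATPases that push calcium out of the cell after a signal. Calmodulin activates them by binding to a stretch near the carboxyl end, and alternative splicing changes that stretch at a position known as splice site C and a cytoplasmic loop at splice site A.

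The beta subunit genes were led by Atp1b1 and the calcium pump genes by Atp2b1 and Atp2b2 together. In TPM, transcripts per 1000000, a scale corrected for transcript length, the 3 Atp1b genes summed to 990 ± 41.5 (SD, n = 2) and the 4 Atp2b genes to 799 ± 4.32. Atp1b1 held 77.8% ± 1.11 of the Atp1b sum. Atp2b1 held 41.2% ± 0.471 of the Atp2b sum and Atp2b2 39.5% ± 0.886. In bulk tissue, fewer cells of a type and less RNA per cell cannot be told apart.

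Atp1b1, the widely expressed beta subunit that is abundant in neurons, was the highest of the 7 genes. Its gene, ENSMUSG00000026576.12, lies on the minus strand of mm10 at chr1:164437109-164458355. It stood at 800 TPM in replicate 1 and 739 TPM in replicate 2, a mean of 770 ± 43.2, which placed it at rank 35 among 22028 protein-coding genes. Replicate 1 was the higher animal.

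Atp1b2, known as a glial beta subunit and adhesion molecule, was the second of its family. The gene, ENSMUSG00000041329.13, lies on the minus strand at chr11:69599736-69605942. Its level was 180 TPM in replicate 1 and 182 TPM in replicate 2. The level of Atp1b1 was 4.26 ± 0.270 times as high as that of Atp1b2.

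Atp1b3, a beta subunit expressed in many tissues, was the lowest of the 7 at 38.7 TPM in replicate 1 and 39.3 TPM in replicate 2. The gene, ENSMUSG00000032412.8, lies on the minus strand at chr9:96332655-96364442. The level of Atp1b2 was 4.63 ± 0.0169 times that of Atp1b3 in these values. In a second deposited quantification, taken up below, it was 6.96 ± 0.0126 times as high. The ordering of the 3 beta genes was the same in both animals.

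Atp2b1, a calcium pump expressed in most tissues, was at 330 TPM in replicate 1 and 328 TPM in replicate 2. The gene, ENSMUSG00000019943.10, lies on the plus strand at chr10:98914406-99026143. Atp2b2, a fast calcium pump known from Purkinje cells and the hair cells of the inner ear, was at 310 TPM in replicate 1 and 322 TPM in replicate 2. The gene, ENSMUSG00000030302.16, spans 298783 bases of the minus strand at chr6:113743831-114042613. The values of both genes lay close together, with those of Atp2b1 above those of Atp2b2 in both animals.

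Atp2b4, a calcium pump found in many tissues, stood at 112 TPM in replicate 1 and 108 TPM in replicate 2. The gene, ENSMUSG00000026463.17, lies on the minus strand at chr1:133699457-133801041. Atp2b3, a calcium pump largely restricted to nervous tissue, was the lowest of its family at 43.5 TPM in replicate 1 and 44.1 TPM in replicate 2. The gene, ENSMUSG00000031376.15, lies on the plus strand at chrX:73503086-73571005. Atp2b2 was 2.87 ± 0.156 times as high as Atp2b4, and Atp2b4 was 2.52 ± 0.0914 times as high as Atp2b3. Both ratios depended on the lengths used, as given below.

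Ordered by mean level, the 7 genes ran Atp1b1, Atp2b1, Atp2b2, Atp1b2, Atp2b4, Atp2b3 and Atp1b3. The place of Atp2b1 was the one that was not settled. The level of Atp2b1 over that of Atp2b2 was 1.04 ± 0.0352 in the deposited TPM. It was 0.962 ± 0.0158 in the second deposited quantification, which used the same annotation and is called the other quantification here. Per kilobase of the longest complete coding model, an alternative added after seeing the data, the ratio was 0.646 ± 0.0255, and Atp2b1, at 107 counts per kilobase and per 1000000 gene counts, was then below Atp1b2 at 115. The effective length deposited with the TPM was 3520 bases for Atp2b1 and 7043 bases for Atp2b2 in replicate 1. Of the Atp2b1 TPM, 57.3% was assigned to transcript models that the annotation marks as incomplete. The other neighbours in the order kept their places in both quantifications, but the ratios between them moved. Per kilobase of the longest complete coding model, Atp2b2 was 4.87 ± 0.302 times Atp2b4, and Atp2b4 was 1.23 ± 0.0606 times Atp2b3. In the other quantification these ratios were 3.51 ± 0.0982 and 2.43 ± 0.0730. The length used for Atp2b4 per kilobase was that of Atp2b4-206, with 11725 bases, a form with 9.79% of the reads of the gene. Atp2b4-201, with 66.7% of the reads, has 8292 bases. Atp1b2 was 5.11 ± 0.134 times Atp1b3 per kilobase.

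The other quantification gave higher TPM for each of the 7 genes, from 1.39 times for Atp1b3 to 2.11 times for Atp1b1. Protein-coding genes held 49.4% and 48.1% of the main TPM in the 2 animals, against 80.3% and 80.4% in the other quantification. With both scaled to protein-coding genes, the other quantification was between 0.845 times the main value, for Atp1b3, and 1.28 times, for Atp1b1.

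**Figure D1:**
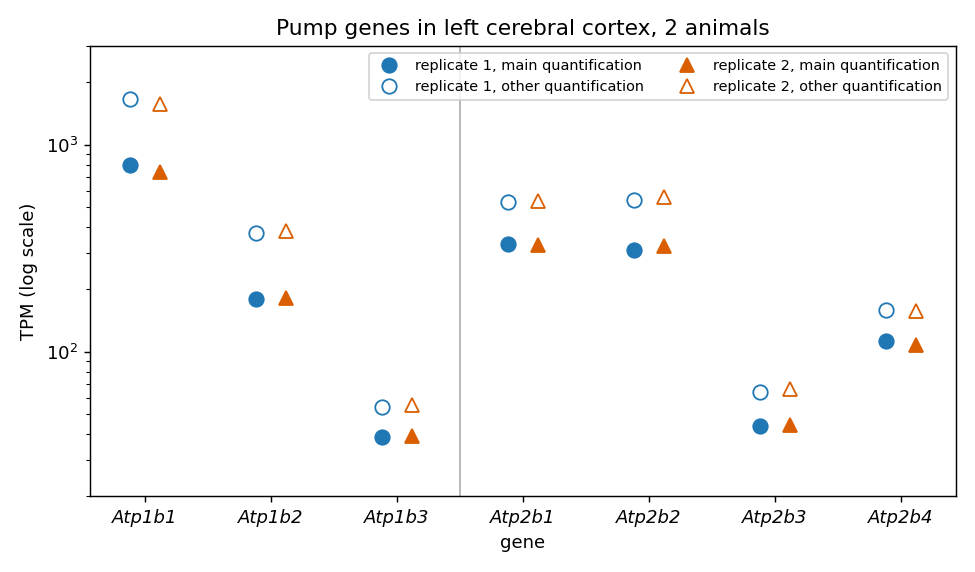
Level of each gene in TPM (log axis) in replicate 1 (circles) and replicate 2 (triangles), with filled symbols for the main and open symbols for the other deposited quantification. The animals lie close together at every gene, Atp1b1 is highest at 800 and 739 TPM, and the open symbols lie above the filled ones.

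Both animals were then compared gene by gene. Sampling noise alone did not cover the gap between the libraries, with a chi-square of 6.42 per degree of freedom over the genes tested. After scaling over all genes, 0 of the 7 genes differed at least 2-fold, against 1.80% of the 18490 genes whose mean count reached 10 (333 genes). For 4 of the 7, the 95% interval of the ratio of counts, an exact binomial interval that covers counting error only, excluded no difference, against 22.6% of all genes tested (4172 genes). Counting error is small at high counts: among the 4376 genes whose mean count reached 1457.5, that of Atp1b3, the share was 41.7%, and 0 of them differed at least 2-fold. No p-value can be given for 1 animal against 1.

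Atp1b1 had the largest difference of the 7. It had 40381 counts in replicate 1 and 36311 in replicate 2, a log2 ratio of replicate 2 over replicate 1 of -0.12 (-0.14 to -0.10). Atp2b4 had 13479 and 12513 counts, a log2 ratio of -0.08 (-0.11 to -0.04). Both were lower in replicate 2 by more than counting error on this scale.

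Atp2b1 had 25322 and 24270 counts, with a log2 ratio of -0.03 (-0.056 to -0.0049). With genes limited to a mean count of 100 or more, its ratio was -0.02 with an interval that included no difference, and the interval of Atp1b2, at 0.04, then excluded it. Atp2b2 had 47481 and 48127 counts and was the 1 gene higher in replicate 2 beyond counting error, with a log2 ratio of 0.05 (0.03 to 0.07). In the other quantification the interval of Atp2b2 included no difference. The intervals of Atp1b2 at 0.03, Atp1b3 at -0.02 and Atp2b3 at 0.02 included no difference, on 10623 and 10616, 1485 and 1430, and 4197 and 4178 counts.

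Scaling to the spike-in RNAs instead put the median log2 ratio over the whole table at 0.32 in place of 0.00035. All 7 genes were then higher in replicate 2, from 0.20 for Atp1b1 to 0.37 for Atp2b2, with all 7 intervals above 0. This scaling adds about the same shift to every gene, so it leaves the genes' places relative to each other as they were.

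**Figure D2:**
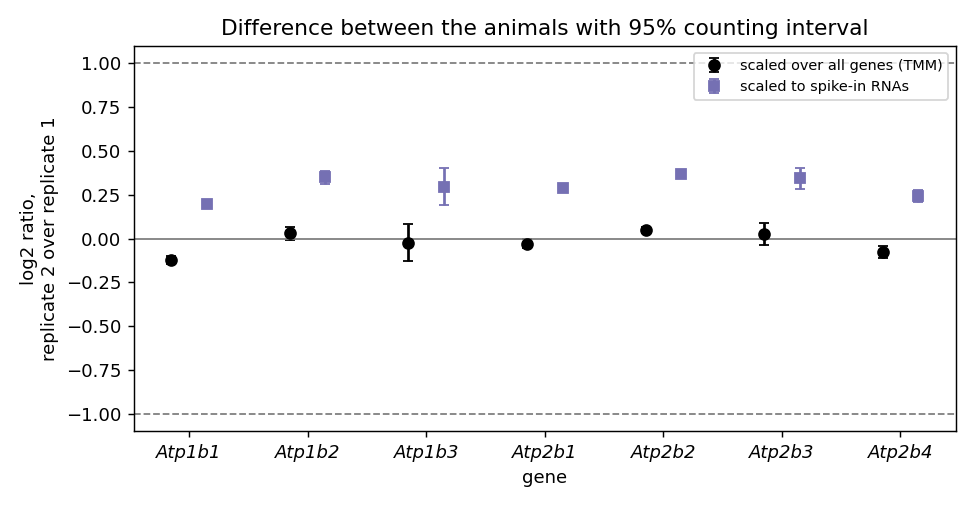
Log2 ratio of replicate 2 over replicate 1 for each gene with its 95% counting interval, scaled over all genes (black circles) or to the spike-in RNAs (violet squares), with dashed lines at 2-fold. Every gene lies far inside the dashed lines, Atp1b1 is lowest at -0.12, and spike-in scaling lifts all 7 above 0.

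Markers of cortical excitatory neurons were present in both libraries (5 of 5, summed 2599 and 2687 TPM). Markers of some other cells differed between the animals. All 6 striatal markers were lower in replicate 2, summed 240 TPM against 135 TPM, and the 5 choroid plexus markers summed to 13.0 TPM against 95.3 TPM, mostly Ttr at 8.58 and 89.2 TPM, with Folr1 at 0 and 11 counts. Folr1 was below the count minimum. Of the 4 choroid plexus markers tested, 2 were higher in replicate 2 beyond counting error, and only Ttr by at least 2-fold. The intervals of the others included no difference. All 6 markers of mature oligodendrocytes were lower in replicate 2, summed 774 TPM against 626 TPM. Beyond counting error, 4 of 6 markers of inhibitory neurons were lower in replicate 2 (summed 553 against 512 TPM) and 4 of 5 of red blood cells (463 against 379 TPM). Of the 6 astrocyte markers 3 were lower and 1 higher (1084 against 1091 TPM), and of the 5 excitatory markers 1 was lower and 1 higher. For endothelium 1 of 4 was lower, for oligodendrocyte precursors 1 of 3, and 0 of 5 microglial markers passed. Of all genes tested 22.6% passed in either direction, and 41.7% of those whose mean count reached 1457.5. With scaling over all genes, Atp1b1, Atp2b1 and Atp2b4 were lower in replicate 2 as well, and Atp2b2 was higher, each beyond counting error. Spike-in scaling, with its shift of about 0.32, put all 7 pump genes higher in replicate 2. The part of these cells in the differences of the pump genes was not tested.

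Transcript forms were named where they held at least 5% of the TPM of the gene in either quantification. The complete coding form Atp1b1-201, of 304 codons, held 91.1% ± 0.695 of Atp1b1, and the incomplete Atp1b1-203 held 8.02% ± 0.730. In the other quantification these shares were 61.2% and 37.9%, so how much of Atp1b1 lay in the short model depended on the quantification. By reads, Atp1b1-201 held 98.0% of the gene in the main and 92.4% in the other quantification.

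The complete form of Atp1b2, Atp1b2-201 with 290 codons, held 87.6% ± 0.183. Atp1b2-202, annotated as a processed transcript without a coding region, held 8.09% ± 0.360. The other quantification gave Atp1b2-201 a share of 51.2%, and placed 26.4% in the noncoding Atp1b2-204 and 13.5% in the incomplete Atp1b2-203, which were at 3.27% and 0% in the main one. Atp1b3-201, of 278 codons, held 90.2% ± 2.85 of Atp1b3 and 100% in the other quantification, where the noncoding Atp1b3-202 (7.64% in the main one) was at 0. In the main quantification Atp1b3-202, of 278 bases, had only 11 and 12 counts. By reads it held 0.790% of the gene there, against 98.7% for Atp1b3-201.

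Atp2b1-201, the complete form of 1220 codons, held 37.3% ± 0.771 of the Atp2b1 TPM and 75.1% ± 0.736 of its reads. The incomplete models Atp2b1-210, at 27.7%, Atp2b1-208, at 18.9%, and Atp2b1-207, at 7.46%, took most of the rest. In the other quantification the shares of these 4 forms were 35.1%, 26.4%, 16.3% and 12.1%, so that of Atp2b1-207 was over 1.5 times as high. Because short incomplete models cover different stretches of the gene, 1 mRNA can be counted in several of them.

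Atp2b2 was spread over several complete forms. Atp2b2-203 held 36.0% ± 0.0468 and Atp2b2-201 31.5% ± 0.562, and both encode 1198 codons. Atp2b2-202, of 1243 codons, held 18.4% ± 1.08, and Atp2b2-206, which the annotation marks as a target of nonsense-mediated decay, held 10.6% ± 0.634. The leading form was Atp2b2-201 in the other quantification, at 34.6%, with Atp2b2-203 at 19.4% and the noncoding Atp2b2-207 at 9.94% against 0.333% in the main one. By reads Atp2b2-207, of 659 bases, held 0.566% of the gene in the other quantification.

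Atp2b3 had 3 complete forms: Atp2b3-203 of 1173 codons held 66.5% ± 2.57, Atp2b3-202 of 1220 codons 25.0% ± 3.15, and Atp2b3-201 of 1144 codons 8.55% ± 0.579. Atp2b4-201, of 1166 codons, led Atp2b4 at 44.5% ± 4.25, followed by Atp2b4-203, of 1172 codons, at 17.2% ± 0.00569. The noncoding Atp2b4-204, of 588 bases, held 28.8% ± 0.859 of the TPM but 2.58% ± 0.110 of the reads. Atp2b4-207, of 1205 codons, was at 1.70% in replicate 1 and 7.59% in replicate 2. Atp2b4-206, also of 1205 codons, was at 4.97% and 4.25%.

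**Figure D3:**
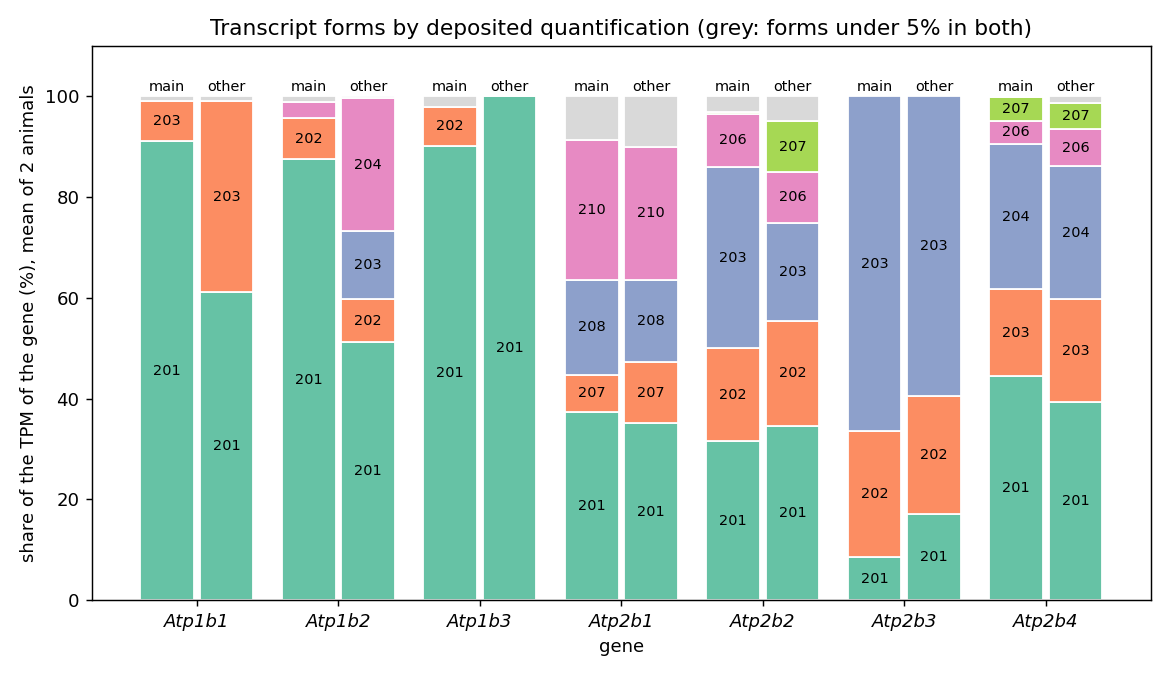
Share of the TPM of each gene held by each transcript form (percent, mean of the 2 animals), with the main quantification on the left and the other on the right of each pair and the number of the form inside its segment. Atp1b1-201 and Atp1b2-201 fill less of the bar in the other quantification (61.2% and 51.2%), while Atp2b1-201 and Atp2b4-201 stand at 35.1% and 39.3% against 37.3% and 44.5%.

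The calcium pump genes differed widely from each other at splice site C. At this site an exon in the calmodulin-binding region can be included in full, giving the variants known as a, or skipped, giving the variants known as b. Atp2b1-209, which holds the first 87 bases of the exon, was counted here with the forms that include it. Of the TPM of the forms that reach the site, the forms with the exon made 11.0% ± 0.520 in Atp2b2, 43.8% ± 0.586 in Atp2b1, 66.5% ± 2.57 in Atp2b3 and 86.9% ± 5.25 in Atp2b4. The per-animal values of these genes did not overlap: Atp2b2 was at 11.4% and 10.6%, Atp2b1 at 43.4% and 44.2%, Atp2b3 at 64.7% and 68.3%, and Atp2b4 at 90.7% and 83.2%. The other quantification gave the same order, at 11.9%, 44.1%, 59.5% and 81.3%. For Atp2b1 the share rests on the incomplete models Atp2b1-209 and Atp2b1-210, of 1404 and 1460 bases, set against the complete Atp2b1-201, of 7130 bases. By reads it was 13.1% ± 0.267, close to the 11.1% ± 0.565 of Atp2b2 by reads. These 2 read shares are not like measures, because in Atp2b2 the form with the exon has 7326 bases against 4586 to 8877 in those without it. In Atp2b3 a further 8.55% was in Atp2b3-201, which ends elsewhere. The Atp2b2 share rests wholly on a form that the annotation marks as a target of nonsense-mediated decay.

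The exons that carry this choice are shown from 1 form of each gene, 5′ to 3′ on the transcript, in mm10. Capitals mark bases equal to Atp2b1 at the same place counted from the exon start, and in Atp2b1 the 32 bases shared by all 4 genes.
Atp2b1-210, chr10:99019278-99019431: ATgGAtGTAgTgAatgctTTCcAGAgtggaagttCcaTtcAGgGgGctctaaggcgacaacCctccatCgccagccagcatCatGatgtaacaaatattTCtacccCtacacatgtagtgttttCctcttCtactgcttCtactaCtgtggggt
Atp2b2-206, chr6:113755217-113755388: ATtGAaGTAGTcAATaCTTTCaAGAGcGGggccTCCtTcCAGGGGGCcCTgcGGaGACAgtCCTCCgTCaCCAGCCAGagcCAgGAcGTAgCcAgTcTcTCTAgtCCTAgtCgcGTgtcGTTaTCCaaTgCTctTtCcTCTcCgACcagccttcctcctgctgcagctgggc
Atp2b3-203, chrX:73559864-73560017: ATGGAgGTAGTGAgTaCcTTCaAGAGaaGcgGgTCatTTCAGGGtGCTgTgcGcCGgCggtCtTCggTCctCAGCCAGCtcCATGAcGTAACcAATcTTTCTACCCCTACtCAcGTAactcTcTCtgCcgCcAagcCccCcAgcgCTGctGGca
Atp2b4-203, chr1:133711642-133711822: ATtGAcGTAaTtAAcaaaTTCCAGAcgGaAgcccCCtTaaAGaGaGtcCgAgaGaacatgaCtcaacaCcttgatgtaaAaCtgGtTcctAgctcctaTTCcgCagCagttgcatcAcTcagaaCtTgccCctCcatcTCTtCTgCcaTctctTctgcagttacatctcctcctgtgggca

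All 4 exons are coding over their whole length in these models, at 154 bases in Atp2b1 and Atp2b3, 172 in Atp2b2 and 181 in Atp2b4. Placed base on base without gaps, the Atp2b2 exon was equal to Atp2b1 at 63.0% of 154 places, the Atp2b3 exon at 63.6% and the Atp2b4 exon at 35.7%. Each of these 4 lengths is 1 more than a multiple of 3, a length that shifts the reading frame that follows. Other forms counted as including the exon differ: the Atp2b1-209 version has 87 bases, a multiple of 3, and that of Atp2b4-201 has 191 bases, of which 186 are coding. In the complete models the form with the exon has the shorter coding region. It has 1154 against 1198 codons in Atp2b2, 1173 against 1220 in Atp2b3, and 1166 or 1172 against 1205 in Atp2b4. In Atp2b2 the annotation marks the form with the exon as a target of nonsense-mediated decay. The Atp2b2 form with the exon also holds a further exon of 127 bases before the shared last exon.

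**Figure D4:**
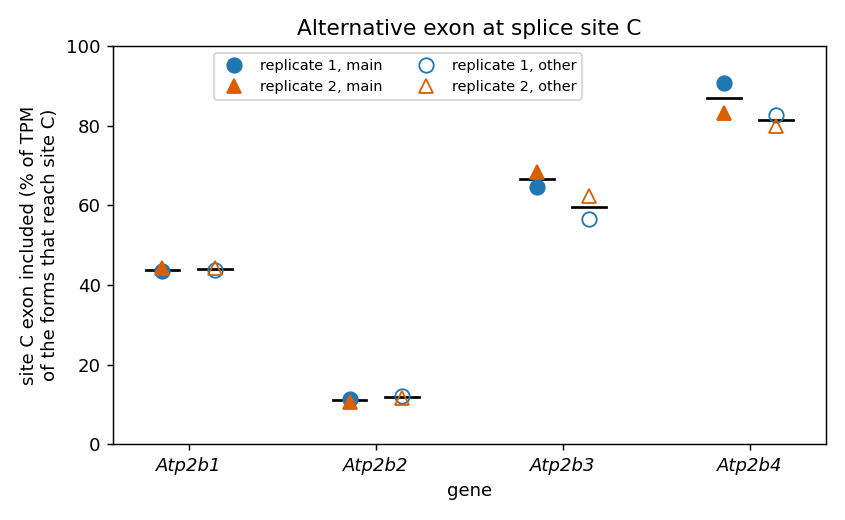
Share of the TPM of forms with the site C exon among the forms that reach the site, per gene, in replicate 1 (circles) and replicate 2 (triangles), with filled symbols for the main and open symbols for the other quantification and bars at the means. The genes rise from Atp2b2 (11.0%) over Atp2b1 (43.8%) and Atp2b3 (66.5%) to Atp2b4 (86.9%), and the values of different genes do not overlap. The Atp2b1 value sets incomplete models of 1404 and 1460 bases against a complete one of 7130 bases. By reads the Atp2b1 share was 13.1% and that of Atp2b2 11.1%, which are not like measures. The Atp2b2 value rests wholly on a form that the annotation marks as a target of nonsense-mediated decay.

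Atp2b2 also varied at splice site A, in the loop next to the phospholipid-binding region. Among the 5 forms that span the site, Atp2b2-202 alone has the insert, and it held 19.7% of their TPM in replicate 1 and 18.5% in replicate 2, a mean of 19.1% ± 0.881. The other quantification gave 24.6% ± 0.360. The insert is made of 3 exons with 135 bases in all, or 45 codons, which is the difference between 1243 and 1198 codons. They are shown in transcript order, on the minus strand of mm10.
Exon of 33 bases, chr6:113803747-113803779: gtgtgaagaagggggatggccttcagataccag
Exon of 60 bases, chr6:113802486-113802545: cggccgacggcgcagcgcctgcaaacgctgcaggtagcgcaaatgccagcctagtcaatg
Exon of 42 bases, chr6:113797110-113797151: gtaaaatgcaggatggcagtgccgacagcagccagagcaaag

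The Atp2b2 forms begin at separate starts. The start region of Atp2b2-203, Atp2b2-206 and Atp2b2-207, the farthest upstream, held 46.9% ± 0.576 of the Atp2b2 TPM. The start of Atp2b2-202, 107 kb downstream of that of Atp2b2-203, held 18.4% ± 1.08. The region of Atp2b2-201, Atp2b2-204 and Atp2b2-208, 150 kb downstream, held 33.3% ± 1.17. The other quantification gave 39.5%, 20.9% and 35.9%. Its 39.5% includes the 9.94% of the noncoding Atp2b2-207, a form with 0.566% of the reads there. Since Atp2b2-202 is the only form with the site A insert and the only one with its start, these 2 features cannot be told apart in the annotation. The models also differ in where their last exon ends. Counted from the most upstream start, that is 294.32 kb in Atp2b2-202, 296.945 kb in Atp2b2-201 and 298.783 kb in Atp2b2-203. The part of these ends in the shares given for the starts and for site A was not tested.

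The 250 bases before each of these starts are shown from RefSeq, on GRCm38.p6 and on the minus strand, since these are the regions from which the forms begin. Capitals mark CpG dinucleotides.
Far upstream, chr6:114042081-114042330: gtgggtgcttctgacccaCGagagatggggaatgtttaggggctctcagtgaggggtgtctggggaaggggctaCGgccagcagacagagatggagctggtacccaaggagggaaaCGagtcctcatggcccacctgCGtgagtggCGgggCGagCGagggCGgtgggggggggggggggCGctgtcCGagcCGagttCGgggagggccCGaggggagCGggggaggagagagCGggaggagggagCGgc
Middle, chr6:113934682-113934931: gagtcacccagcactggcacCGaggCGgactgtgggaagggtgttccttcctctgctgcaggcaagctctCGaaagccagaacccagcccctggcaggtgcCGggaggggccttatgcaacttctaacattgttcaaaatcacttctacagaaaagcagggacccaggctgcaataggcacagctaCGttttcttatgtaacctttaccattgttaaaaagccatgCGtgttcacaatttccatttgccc
Nearest the coding exons, chr6:113891540-113891789: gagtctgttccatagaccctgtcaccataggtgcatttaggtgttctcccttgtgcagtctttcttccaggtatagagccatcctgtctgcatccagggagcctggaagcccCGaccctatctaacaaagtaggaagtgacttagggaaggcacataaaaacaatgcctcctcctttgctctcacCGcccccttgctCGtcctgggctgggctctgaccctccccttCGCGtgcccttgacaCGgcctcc

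The far upstream window held 16 CpG, and 76.5% of 32851 RefSeq windows of the same length held as many or fewer. The middle window and the window nearest the coding exons held 6 CpG each, equal to the median of all windows. The letters GGGCGG, on either strand, were in the far upstream window and the one nearest the coding exons, and in 32.7% of all windows. The letters TATAAA, on either strand, were in none of the 3 windows and in 12.4% of all. The RefSeq start of the far upstream window lies 54 bases from that of Atp2b2-203, and the others match their forms exactly.

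**Figure D5:**
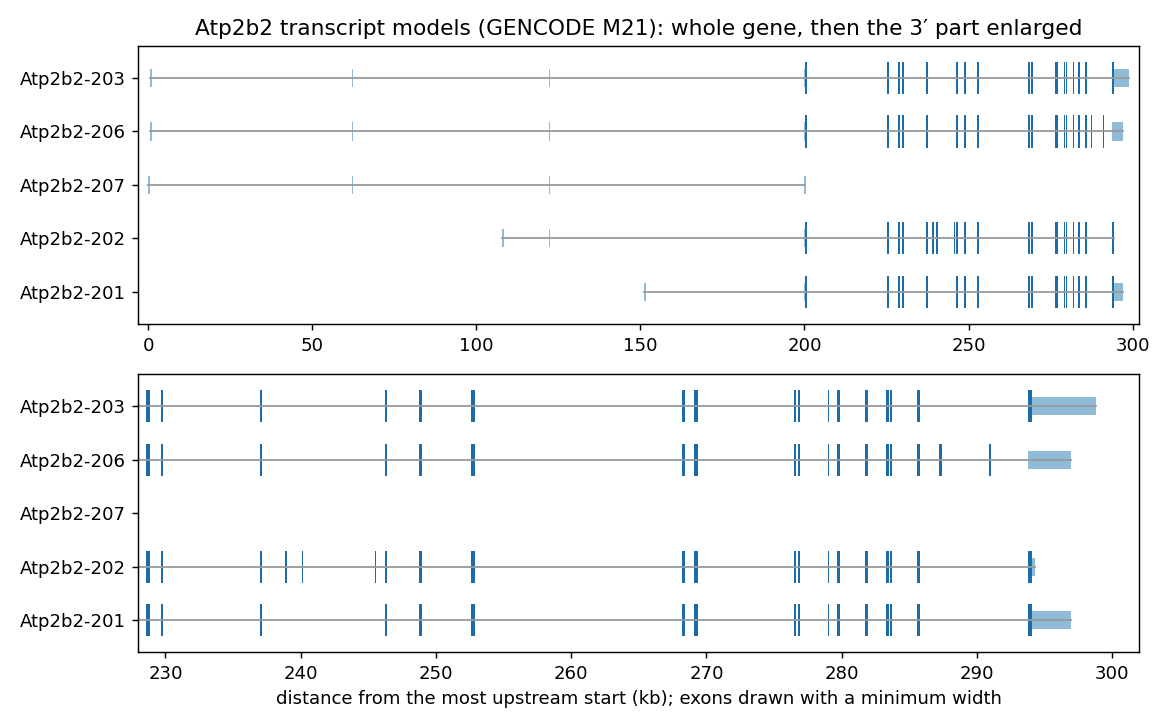
Exons of the Atp2b2 forms named in the text by distance in kb from the most upstream start, with coding parts tall and dark, over the whole gene (top) and enlarged over its downstream end (bottom). The forms begin at 3 separate places, Atp2b2-202 alone has the 3 extra exons of site A, and Atp2b2-206 alone has the exons of site C.

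Sequence shared with other genes could blur some of these counts. Of the 31-base words of the transcripts, 16.9% in Atp1b1 were shared, on either strand, with Nme7, which overlaps its end on the opposite strand and had 352 and 344 counts. In Atp1b3 16.2% were shared, nearly all with the pseudogene Gm1848, listed at 2.16 and 0 counts. The share was at most 2.40% in the Atp2b genes and 0 in Atp1b2. The deposited posterior SD of the count was at most 0.0357% of the count for all 7 genes.

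Genes that work with these pumps were also detected. Of the 7 FXYD regulators, small proteins that tune the sodium-potassium pump, 5 reached 1 TPM in both animals, and the highest was Fxyd7 at 77.4 ± 0.580 TPM. All 4 Nkain genes, whose products bind the beta subunit, reached it, led by Nkain4 at 20.3 ± 0.792 TPM. Atp1b4 and Atp4b, relatives of the beta subunits, had no counts in either library, and the 3 counts that this allows correspond to 0.0913 and 0.0937 CPM, counts per 1000000 gene counts.

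The accessory subunits of the calcium pumps were high, with Nptn, neuroplastin, at 436 ± 17.8 TPM and Bsg, basigin, as the second of that list. With scaling over all genes both were lower in replicate 2 beyond counting error, at log2 ratios of -0.05 for Nptn and -0.14 for Bsg, and spike-in scaling, with its shift of about 0.32, turned such ratios above 0. Of all genes tested 22.6% differed beyond counting error in either direction, and 41.7% of those whose mean count reached 1457.5, as both did. All 3 calmodulin genes were also lower in replicate 2 on the first scale, with a median log2 ratio of -0.11, and Calm2 was highest at 1009 ± 60.6 TPM. Their counts also lie in the range where 41.7% of genes passed.

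Of the 5 intracellular calcium pump genes, 4 reached 1 TPM, led by Atp2a2, the pump of the endoplasmic reticulum, at 324 ± 0.948 TPM. Of the 9 sodium-calcium exchanger genes, 7 reached it, led by Slc24a2 at 141 ± 6.28 TPM, and their sum was 446 ± 8.26 TPM. No tested gene of these related lists differed at least 2-fold between the animals, against 1.80% of all genes tested. Beyond counting error, against 22.6% of all genes tested, 1 of the 7 tested exchangers was higher in replicate 2, Slc24a2 at a log2 ratio of 0.03, and 0 of the 4 tested intracellular pump genes passed in either direction. Of the 4 Nkain genes 1 was lower, Nkain2 at -0.18 (-0.33 to -0.03), and 0 of the 5 tested FXYD genes passed. Of the SERCA regulators Pln and Sln, Pln was the higher at 1.18 ± 0.382 TPM.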

How the data were processed

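Total RNA-seq libraries of 2 animals were used. The deposited gene and transcript tables hold expected counts, estimates that need not be whole, and TPM from an alignment to the transcriptome, on mm10 with GENCODE M21, per the file headers and the record beside the files. The other quantification, deposited as estimated counts and TPM, was made directly from reads. The aligner is not given in the sources used here, nor are the programs. The 26248 rows naming no gene held at most 2.48e-05% of counts and, with the spike-ins, were left out.

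Levels are deposited TPM, mean ± SD over 2 animals. Counts were rounded and scaled by TMM in edgeR 4.0.16 (R 4.3.3, prior count 2, mean count of at least 10), and ratios have exact (Clopper-Pearson) 95% intervals given the effective library sizes. They cover counting error only. The ratio step was tested on simulated data. DESeq2 1.42.0 size factors were an alternative. Site C and site A forms were found from the GENCODE models.

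Named were all 7 pump genes, transcript forms of at least 5%, and from each related list the highest gene and any at least 2-fold different. Bsg, Nkain2, Ttr, Folr1, Nme7 and Gm1848 stand outside that rule or were singled out after their values were seen. The genes and lists were chosen with earlier results of these data known. Some items the naming rule takes are not reported here. Whether the CAST/EiJ copy of a hybrid animal aligned as well as the reference copy was not tested. RefSeq windows matched 5 of the 7 genes.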

Additional observations from a re-analysis of the deposited data

How the results depend on the processing

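The sums depended on what TPM was relative to: the Atp1b sum was 2054 in the other quantification and 2030 with TPM rescaled to protein-coding genes, and the Atp2b sum 1304 and 1639. The share of Atp1b1 in its family was 78.9% in the other quantification. That of Atp2b1 was 40.7%, and 32.0% from counts per kilobase of the longest complete coding model, an alternative added after seeing the data. Atp2b1 over Atp2b2 turned to 0.962 in the other quantification and to 0.646 with those lengths. The site C shares kept their order in the other quantification, a comparison also added after seeing the data. With spike-in scaling 7 genes differed by more than counting error, and Atp1b1, Atp1b3, Atp2b1 and Atp2b4 turned to 0.20, 0.30, 0.29 and 0.24 on the log2 scale. With the other quantification 3 did, without Atp2b2. With a mean count of at least 100, Atp2b1 was lost and Atp1b2 gained. Genes at least 2-fold different among all tested numbered 633 with spike-in scaling, 1958 with no count minimum, 29 with a mean count of at least 100 and 80 with TPM and a pseudocount of 1, while 0 of the 7 pump genes passed 2-fold in each of the alternatives run. Leaving out an animal leaves the value of the other, 960 to 1019 TPM for the Atp1b sum and 796 to 802 TPM for the Atp2b sum. No paired analysis was possible because both animals belong to 1 group. With 2 animals the spread is poorly known.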

Other observations

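The RefSeq windows before the starts of the other pump genes differed in CpG content. The 2 windows of Atp2b1 held 43 and 41 CpG in 250 bases, as many as or more than 99.5% and 99.1% of all windows. The window of Atp1b1 held 24, and those of Atp1b3 held 24 and 35. The window of Atp2b4, at the start of Atp2b4-201, held 2 CpG, and 29.0% of all windows held as many or fewer. Atp2b4-204 and Atp2b4-206 begin at another start, farther upstream.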
